A study of Gallus gallus with 6 samples.

Results

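The actin bundling and crosslinking genes of stereocilia were followed in chick (Gallus gallus) auditory epithelium after hair cell loss. They comprised 10 genes chosen by gene symbol among the 25619 rows of the deposited gene table. From background knowledge, 6 were classed as restricted to hair cells within the inner ear (ESPN, ESPNL, FSCN2, XIRP2, GRXCR1 and GRXCR2) and 4 as widely expressed (FSCN1, PLS1, PLS3 and TRIOBP). Each symbol matched a single row, and no other row of the table overlapped any of the 10 in position.

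The libraries came from basilar papillae, the auditory sensory epithelium of birds, kept as explants of the cochlear duct from chicks at post-hatch day 1. All 6 explant libraries had been exposed to streptomycin (SM), an antibiotic that kills hair cells, for 48 h, and all are labelled day 3. In 3 libraries (SM plus BQ788) the medium then also held BQ788, an inhibitor of the endothelin receptor EDNRB, at a dose not given in the sources used here, and 3 libraries were SM controls. No library without SM was used here, so loss or return of hair cells was not measured. The labels describe the hair cells as all lost after SM, and which cells the transcripts of hair cell genes came from was not measured. Whether a library pools several explants, and whether replicates came from separate animals, is not given in the sources used here, so p-values measure the spread between these samples, which may be technical.

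Hair bundles are rows of stereocilia, each a protrusion filled with parallel actin filaments. Espins, fascins and plastins tie these filaments into a stiff core, TRIOBP packs them into the rootlet that anchors the stereocilium in the cell, and XIRP2 lies along filaments and in mouse is needed to maintain them. GRXCR1 and GRXCR2 are glutaredoxin-domain proteins that mouse stereocilia need to reach normal shape. Fascin 1 and plastin 3 also bundle actin in many migrating and epithelial cells, and plastin 1 is also the plastin of the intestinal brush border.

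The restricted bundlers ESPN, ESPNL and FSCN2 and the filament binder XIRP2 had lower levels in every BQ788 library than in any SM control, at 49.9% to 65.7% of the control mean. Such a gap below the controls was seen for these 4 members and for 14.1% of all genes tested. The widely expressed genes overlapped between the groups, and PLS3 had a higher mean with BQ788. None of the 8 members tested passed an adjusted p of 0.05 in limma on log2(FPKM + 1), against 2.99% of all 11857 genes tested. At an unadjusted p under 0.05, 4 members passed, all lower, where 22.7% of all genes did in either direction. FPKM counts a gene's reads per unit of its length, relative to the size of the library. Genes averaging under 1 FPKM across the libraries were not tested, which left out GRXCR1 and GRXCR2.

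**Figure D1:**
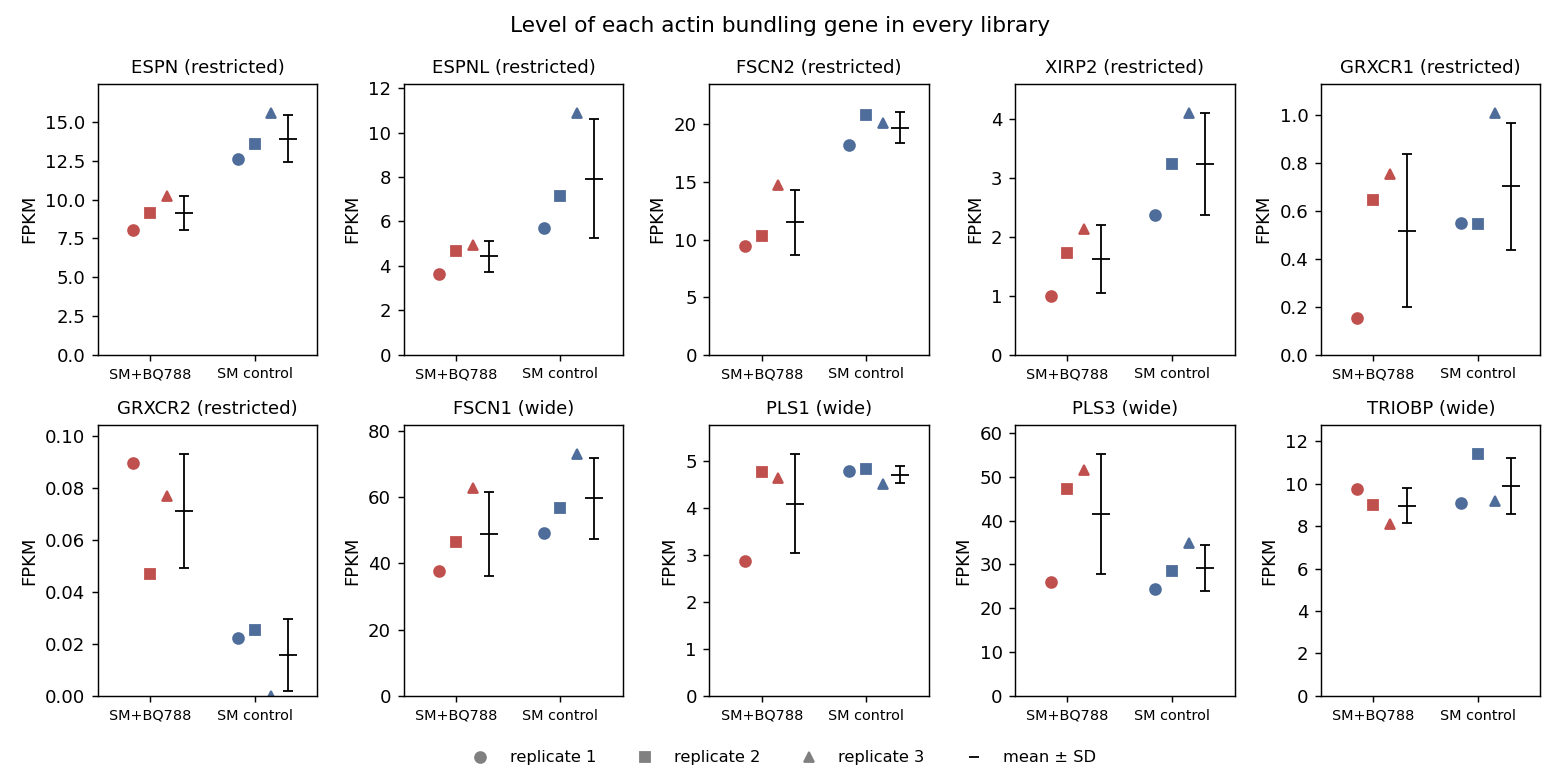
Level of each of the 10 genes in FPKM (y axis, linear, from 0) in the SM plus BQ788 libraries (left, red) and the SM control libraries (right, blue), with a symbol per replicate number and the mean ± SD in black (n = 3 per group). For ESPN, ESPNL, FSCN2 and XIRP2 every BQ788 point lies below every control point, while FSCN1, PLS1, PLS3, TRIOBP and GRXCR1 overlap.

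ESPN encodes espin, which crosslinks the filaments of stereocilia and without which mouse bundles collapse. Its level was 8.03, 9.15 and 10.2 FPKM with BQ788, against 12.6, 13.6 and 15.6 FPKM in the SM controls. The groups did not overlap, and the lowest control library lay above the highest BQ788 library. The means were 9.14 ± 1.10 FPKM with BQ788 and 13.9 ± 1.53 FPKM in controls (SD, n = 3 each), from 792 to 1375 reads per library. The log2 fold change was -0.56 (SE 0.11, 95% interval -0.82 to -0.29, limma adjusted p = 0.0540). ESPN lies on chromosome 21 from 595115 to 607161 on the minus strand (GRCg7b, as are all positions given here).

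ESPNL, the espin-like gene (chromosome 9, 4481063 to 4485389, plus strand), encodes a paralog of espin that in mouse helps to set the graded heights of stereocilia. It was at 3.65, 4.68 and 4.94 FPKM with BQ788, against 5.70, 7.15 and 10.9 FPKM in controls. Again no BQ788 library reached the lowest control, but control replicate 3 stood well above the other controls. Its log2 fold change was -0.68 (SE 0.22, interval -1.20 to -0.16, limma adjusted p = 0.135), and it was -0.45 without control replicate 3.

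FSCN2, fascin 2 (chromosome 18, 9817049 to 9820008, minus strand), is the fascin of photoreceptors and of stereocilia. Its level was 9.47, 10.3 and 14.7 FPKM with BQ788, against 18.2, 20.8 and 20.1 FPKM in the SM controls. The controls lay close together and above every BQ788 library, whose own spread was wider. The means were 11.5 ± 2.83 FPKM with BQ788 and 19.7 ± 1.32 FPKM in controls (SD, n = 3 each), with 277 to 537 reads per library. This gave a log2 fold change of -0.75 (SE 0.16, interval -1.12 to -0.38, limma adjusted p = 0.0590).

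ESPN and FSCN2 lay just outside the threshold, and their calls differed between fits. With limma voom, which takes recovered reads in place of FPKM and weights them, both passed (adjusted p = 0.0440 for ESPN and 0.0460 for FSCN2, where 3.12% of all genes passed). Without BQ788 replicate 1 both also passed (adjusted p = 0.0438 and 0.0480), where 11.0% of all genes did. Without BQ788 replicate 2 neither passed (adjusted p = 0.181 and 0.207), nor without any control library, where in each case 1 of all genes passed. Without BQ788 replicate 3 FSCN2 passed (adjusted p = 0.0320) and ESPN did not (0.0900), where 21 of all genes passed.

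XIRP2, which binds along actin filaments in stereocilia and in striated muscle, was the least abundant member that could be tested. It was at 0.997, 1.73 and 2.14 FPKM with BQ788, against 2.38, 3.24 and 4.11 FPKM in controls. The groups did not overlap, and 49 to 181 reads per library stood behind these values. On the log2 scale the difference was -0.70 (SE 0.21, interval -1.21 to -0.19, limma adjusted p = 0.125). The scale of log2(FPKM + 1) understates the change of so low a gene, and the ratio of the group means was 0.499. The row (chromosome 7, 19004169 to 19059930, minus strand) has a gene length of 2769 bases and carries the LIM domain in its description.

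XIRP2 is also a muscle gene, and muscle markers were read beside it. The 6 defining markers, of which 5 were in the table, summed to 13.0, 34.7 and 22.2 FPKM with BQ788 and to 28.1, 28.0 and 28.1 FPKM in controls, almost all of it from ACTA1 and MYH11. Of the wider list of 18 muscle genes 5 could be tested, 0 passed in limma and 2, ACTA2 and MYH11, were lower at an unadjusted p under 0.05, against 11.9% of all genes tested. Its summed level was 162 to 192 FPKM with BQ788 and 197 to 218 FPKM in controls, so it was lower in every BQ788 library than in any control. Most of it came from TNNC1, the troponin C of slow and cardiac muscle, at 127 to 139 FPKM with BQ788 and 132 to 158 FPKM in controls. TNNC2, the troponin C of fast muscle, was at 9.30 to 37.4 FPKM with BQ788 and 22.8 to 35.5 FPKM in controls. Another 11 genes of this list averaged under 1 FPKM and were not tested. They included TTN (means 0.0251 FPKM with BQ788 and 0.0193 FPKM in controls) and NEB (0.109 and 0.127). Of the same list ACTC1 and MYOG were at 0 in every library, and XIRP1, the muscle paralog of XIRP2, reached 0.00640 FPKM in 1 library only. The part of muscle transcripts in the XIRP2 difference was not tested.

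GRXCR1 (chromosome 4, 67568762 to 67605257, minus strand) was detected at 0.154, 0.645 and 0.754 FPKM with BQ788, against 0.550, 0.547 and 1.01 FPKM in controls. These values came from 7, 28 and 30 reads with BQ788 and 25, 22 and 41 reads in controls. The groups overlapped, and an exact two-sided permutation test of log2(FPKM + 1) gave p = 0.600. At 7 reads the counting error alone is 37.8%.

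GRXCR2 (chromosome 13, 17354736 to 17364974, minus strand) is annotated as a long non-coding RNA in the table, unlike the other members. It had 4, 2 and 3 reads with BQ788 and 1, 1 and 0 reads in controls. These counts do not overlap but lie at or near the floor of 3 reads per library, so no fold is given. Among the members GRXCR2 was the only 1 placed higher in every BQ788 library than in any control. Of all genes tested, 15.2% were placed so, but these averaged at least 1 FPKM and GRXCR2 did not. The share therefore does not cover genes near the floor.

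Among the widely expressed members FSCN1, fascin 1 (chromosome 14, 4196370 to 4203790, plus strand), had the highest mean FPKM. It was at 37.8, 46.4 and 62.7 FPKM with BQ788, against 49.2, 56.8 and 73.1 FPKM in the SM controls. The groups overlapped, with BQ788 replicate 3 above 2 of the controls. The log2 fold change was -0.29 (SE 0.21, interval -0.80 to 0.21, limma adjusted p = 0.461), and the interval holds both no difference and one as large as that of ESPN. With a library left out it lay between -0.48 (without BQ788 replicate 3) and -0.12 (without BQ788 replicate 1), and it was -0.14 without control replicate 3.

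PLS3, plastin 3 (chromosome 4, 2906836 to 2951321, plus strand), was at 25.9, 47.1 and 51.6 FPKM with BQ788, against 24.3, 28.4 and 34.8 FPKM in controls. BQ788 replicates 2 and 3 exceeded every control, whereas BQ788 replicate 1 lay within the control range. The log2 fold change was 0.45 (SE 0.27, interval -0.18 to 1.09, limma adjusted p = 0.360), a value that 98.0% of all genes tested fell below. Without BQ788 replicate 1 it was 0.75 (SE 0.15) and passed (limma adjusted p = 0.0357), as did 11.0% of all genes in that fit. It was 0.27 (adjusted p = 0.620) without BQ788 replicate 3. Its gene length in the table is 23985 bases, against 1648 to 6674 bases for the other members, and its 10333 to 19219 reads per library were the most of any member, so that its place below FSCN1, with 2020 to 3493 reads, depends on that length.

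PLS1, plastin 1 (chromosome 9, 10160485 to 10198792, plus strand), was at 2.88, 4.76 and 4.64 FPKM with BQ788, against 4.79, 4.83 and 4.51 FPKM in controls. A single library, BQ788 replicate 1, was low, and the rest lay together. On the log2 scale it differed by -0.19 (SE 0.16, interval -0.57 to 0.20, limma adjusted p = 0.536), with an adjusted p of 0.996 without BQ788 replicate 1, and by -0.29 without BQ788 replicate 2. Brush border markers were read beside it as an outside source of plastin 1. The 4 defining ones were near 0, summing to 0.799 to 1.01 FPKM with BQ788 and 1.17 to 1.19 FPKM in controls. Of the wider list of 11 genes, EZR and USH1C, which are also in the actin crosslinker and bundle lists, were not near 0. EZR was at 28.6 to 104 FPKM with BQ788 and 46.6 to 71.4 FPKM in controls, and USH1C at 29.2 to 43.2 and 30.1 to 34.5 FPKM. Which cells the PLS1 transcripts came from was not tested.

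TRIOBP, the gene of the rootlet bundler (chromosome 1, 51173130 to 51188787, minus strand), was at 9.77, 8.97 and 8.12 FPKM with BQ788, against 9.08, 11.4 and 9.17 FPKM in controls. The value is per gene, so the transcript forms of TRIOBP were not told apart. The groups overlapped. Its log2 fold change was -0.13 (SE 0.11, interval -0.39 to 0.13, limma adjusted p = 0.539), the narrowest interval of all tested members together with that of ESPN. It was -0.03 without control replicate 2 and -0.07 without BQ788 replicate 3.

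**Figure D2:**
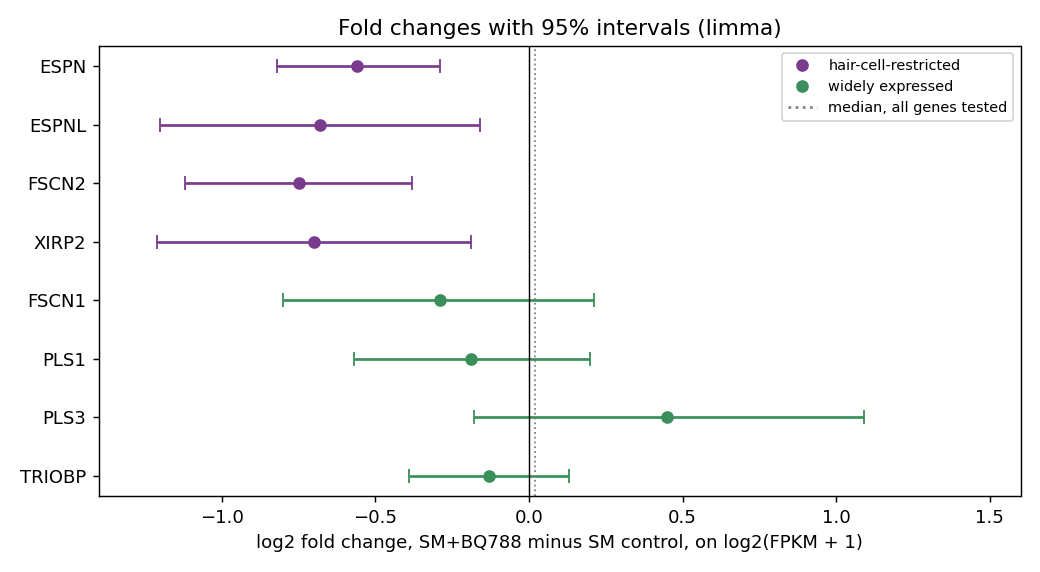
Log2 fold change (x axis, SM plus BQ788 minus SM control, on log2(FPKM + 1)) of the 8 members tested, with the 95% interval from limma, in purple for hair-cell-restricted and green for widely expressed genes. The dotted line is the median of all genes tested (0.02). The restricted genes lie between -0.75 and -0.56 with intervals below 0, and the intervals of all 4 widely expressed genes include 0.

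Set in order of mean level per length over all libraries, the members ran FSCN1, PLS3, FSCN2, ESPN, TRIOBP, ESPNL, PLS1, XIRP2, GRXCR1 and GRXCR2. This order rests on the gene lengths of the table, whose fit to the transcripts present was not tested and which stand out as long for PLS3. Only the steps between PLS3 and FSCN2 and between GRXCR1 and GRXCR2 separated the full ranges of neighbours. FSCN2 nevertheless lay above ESPN in 6 of 6 libraries, while FSCN1 lay above PLS3 in 5. Among genes tested FSCN1 had a higher mean than 90.9%, FSCN2 than 66.0%, ESPN than 56.8% and XIRP2 than 15.1%. Summed over the 6 restricted members the level was 22.4, 26.6 and 32.9 FPKM with BQ788, against 39.4, 45.3 and 51.7 FPKM in controls, and over the 4 widely expressed members 76.4, 107 and 127 FPKM, against 87.3, 101 and 122 FPKM.

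Fascins and plastins come as pairs of a restricted or epithelial and a broader gene, so their ratio was taken within each library. The log2 ratio of FSCN2 to FSCN1, each as FPKM + 1, was -1.89, -2.07 and -2.02 with BQ788, against -1.38, -1.41 and -1.81 in controls. Every BQ788 library lay below every control, a difference of -0.46 (exact two-sided permutation p = 0.1, adjusted p = 0.200 over 4 ratios). With 3 against 3 libraries 0.1 is the smallest p such a test can give, so no ratio could have passed. FSCN2 made up 20.0%, 18.2% and 19.0% of fascin 1 and 2 FPKM with BQ788, against 27.1%, 26.8% and 21.6% in controls.

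The ratio of PLS1 to PLS3 also did not overlap, at -2.80, -3.06 and -3.22 with BQ788, against -2.13, -2.34 and -2.70 in controls (difference -0.64, exact permutation p = 0.1, adjusted p = 0.200). Here the lower ratio came with a higher PLS3 mean as well as a lower PLS1 mean, and neither gene passed alone with all libraries. The lower PLS1 mean rested on BQ788 replicate 1. Without that library the log2 fold change was -0.00 for PLS1 and 0.75 for PLS3, and the ratio differed by -0.75. The espin ratio, ESPNL to ESPN, overlapped between the groups. It was -0.96, -0.84 and -0.92 with BQ788, within the control values of -1.02, -0.84 and -0.48 (difference -0.13, exact permutation p = 0.700). The ratio of GRXCR2 to GRXCR1 differed by 0.25 (exact permutation p = 0.600) at a pseudocount of 1, from mean log2 differences of 0.08 for GRXCR2 and -0.18 for GRXCR1. At a pseudocount of 0.1 it differed by 1.07 (exact permutation p = 0.1), and with GRXCR2 near the floor its size cannot be read.

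**Figure D3:**
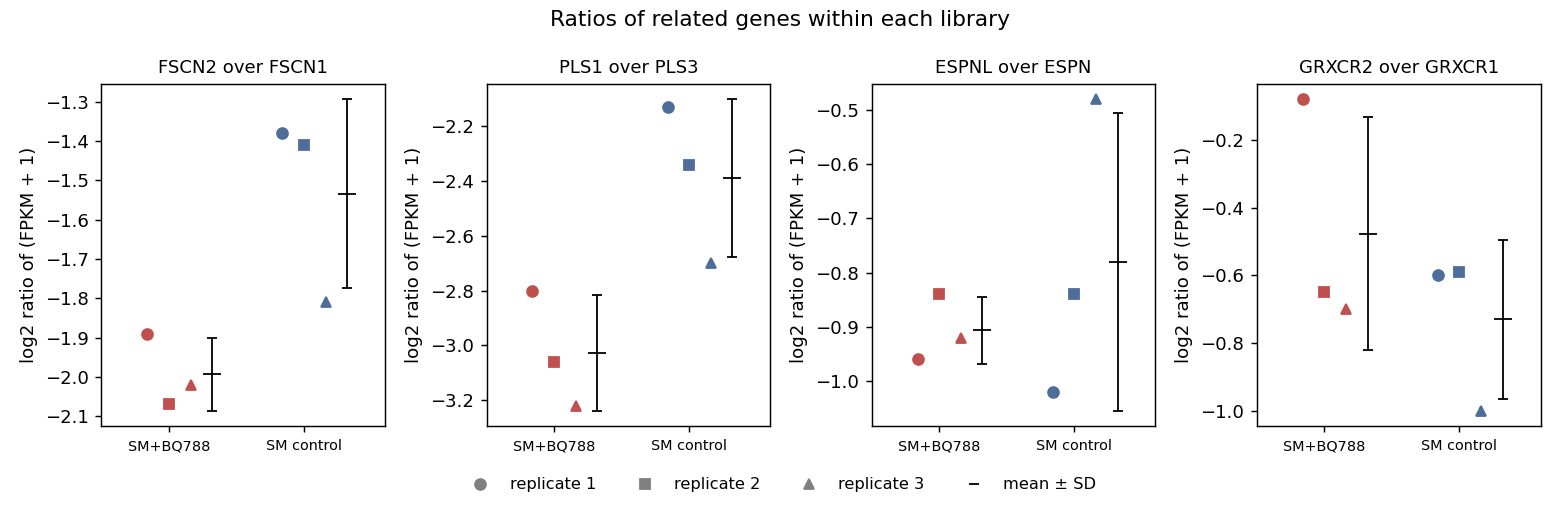
Log2 ratio of (FPKM + 1) for 4 pairs of related genes (y axes differ between panels and do not start at 0), SM plus BQ788 libraries left and SM control libraries right, with a symbol per replicate number and the mean ± SD in black (n = 3 per group). The ratios FSCN2 over FSCN1 and PLS1 over PLS3 do not overlap, with every BQ788 point below the controls. ESPNL over ESPN and GRXCR2 over GRXCR1 overlap.

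Libraries also differed within a group. Among the 10 members, control replicate 3 was the highest control for 6, BQ788 replicate 1 the lowest BQ788 library for 8 and BQ788 replicate 3 the highest for 7. These counts include GRXCR1 and GRXCR2, with at most 41 and 4 reads, and were not made over all genes. FSCN1 rose with the replicate number in both groups, and so did PLS3 and the restricted members ESPN, ESPNL and XIRP2. They shared this order with ACTB, the cytoplasmic beta-actin gene. ACTB was at 1016, 1761 and 2275 FPKM with BQ788 and 1426, 1620 and 2024 FPKM in controls. The 8 defining supporting cell markers had this order as a sum. It was 2941, 3571 and 4149 FPKM with BQ788 and 3753, 3842 and 4708 FPKM in controls. Most of it came from TECTB (mean 1866 FPKM with BQ788 and 2350 FPKM in controls) and GJB6 (1017 and 940). TECTB, GJB6 and GJB2 each rose so in both groups, and the other markers of this sum did not. SOX9 fell in both, at 47.4, 46.5 and 40.0 FPKM with BQ788 and 60.9, 59.7 and 51.1 FPKM in controls. The 5 defining mesenchyme markers ran otherwise, at 286, 109 and 148 FPKM with BQ788 and 232, 204 and 175 FPKM in controls. The part of these sums in the members' values was not tested.

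Across the 6 libraries ESPN correlated with XIRP2 (Pearson r = 0.97), FSCN2 (0.96) and ESPNL (0.95) on log2(FPKM + 1). It correlated less with FSCN1 (0.79) and PLS1 (0.60), and hardly with TRIOBP (0.25) or PLS3 (-0.20). The wide member FSCN1 also correlated with XIRP2 (0.89), ESPNL (0.84) and FSCN2 (0.76). ESPNL was thus no closer to FSCN2 (0.83) than to FSCN1. These values describe 6 points that share the treatment difference and the depth of each library. The genes most like the mean of the tested restricted members were ITPR1, an intracellular calcium channel (0.9940), PCMT1L (0.9935) and MRPS23, a mitochondrial ribosomal protein gene (0.9910). For ESPN alone they were PAPLN, a secreted matrix protein gene (0.9980), MRPS23 (0.9979) and BICDL1 (0.9972). For FSCN2 they were ARRDC2 (0.9973), IL13RA1 (0.9955) and ITGB3 (0.9929). For XIRP2 they were CD164L2 (0.9961), BPIFB2 (0.9918) and TRIM47 (0.9916), and for ESPNL CHCHD3 (0.9853), CLRN1, the clarin 1 gene of hair bundles (0.9845), and GNLY (0.9799). All were picked as the highest r among the tested genes with a symbol. The nearest genes of the wide members included C16orf62 and SLC27A1 for FSCN1, and UQCRHL, NEK7 and TENM3 for PLS3. They also included ATP5I, MET and ARHGAP5 for PLS1, and DTX4, EME2 and ARL8BL for TRIOBP. Of the hair cell and hair bundle lists only CLRN1 was among the nearest genes of any member. Whether restricted and wide members differ in this was not tested.

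The hair cell markers showed where the restricted members stood among other genes of the cell. All 11 defining markers were in the table, and 9 averaged at least 1 FPKM. The 11 summed to 356, 354 and 334 FPKM with BQ788, against 381, 385 and 400 FPKM in controls. Most of this sum came from ATOH1 (mean 154 FPKM with BQ788 and 161 FPKM in controls), CALB2 (69.0 and 85.4) and MYO6 (73.4 and 71.7). The sum therefore says little of the less abundant markers. Of the wider hair cell list 26 of 35 genes were tested, with a median log2 fold change of -0.33, against 0.02 over all genes tested. In that list 1 gene fell and 0 rose, where 2.24% of all genes tested fell and 0.751% rose. At an unadjusted p under 0.05, 16 were lower and 0 higher, against 11.9% and 10.8% of all genes tested. The gene that fell was NHLH1, a transcription factor of young hair cells, at 6.63 ± 0.584 FPKM with BQ788 and 12.2 ± 1.72 FPKM in controls (SD, n = 3 each, log2 fold change -0.79, limma adjusted p = 0.0327). Next by p came LHFPL5 (-0.47, adjusted p = 0.0802), a subunit of the transduction complex, and PTPRQ (-0.38, adjusted p = 0.0977), a phosphatase of the stereocilium base.

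Of the 26 hair cell genes, only NHLH1 had a lower log2 fold change than FSCN2, XIRP2 or ESPNL, and 4 had a lower one than ESPN. These places are on log2(FPKM + 1), which understates the change of low genes. TMPRSS3, with means of 1.03 FPKM with BQ788 and 1.87 FPKM in controls, had a log2 fold change of -0.50. Hair cell genes averaging under 1 FPKM were not placed. ATOH1, which switches on the hair cell programme, was at 176, 151 and 134 FPKM with BQ788, against 158, 162 and 163 FPKM in controls, and its groups overlapped. MYO7A, a motor of the bundle, was at 4.64, 6.04 and 7.25 FPKM with BQ788, against 7.37, 7.43 and 9.90 FPKM in controls, which lay apart by a small gap (limma adjusted p = 0.213). In bulk RNA, fewer hair cells and less RNA per hair cell cannot be told apart. The call of NHLH1 was lost when BQ788 replicate 2 or 3 or any control was left out, and without the filter on low values, and no gene of the list passed then.

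Other genes of the bundle lay on both sides of 0. These genes were not split by how widely they are expressed. Those also in the hair cell list and tested had log2 fold changes from -0.54 (TMC2) to 0.03 (MYO6). Of 53 listed genes for capping, elongation, motors, taper, tip links and the transduction complex, 38 were tested, 1 fell and 0 rose, where 2.24% of all genes tested fell and 0.751% rose. At an unadjusted p under 0.05, 10 were lower and 3 higher, against 11.9% and 10.8% of all genes tested, and the median log2 fold change was -0.07. MYO1H, an unconventional myosin, fell to 6.82 ± 0.736 FPKM with BQ788, against 14.5 ± 1.38 FPKM in controls (SD, n = 3 each, log2 fold change -0.99, limma adjusted p = 0.0189). It lost its call when BQ788 replicate 2, BQ788 replicate 3 or any control was left out. Without BQ788 replicate 1 there were 5 calls among the 38 bundle genes, 4 lower and 1 higher, where 11.0% of all genes passed. LHFPL5, named above, and BAIAP2L2, a membrane-bending protein of stereocilia tips (-0.40, adjusted p = 0.0716), followed it by p.

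By role, and chosen after their values were seen, MYO3A, the motor that in mammals carries an espin to stereocilia tips, was at 0.551, 0.785 and 0.946 FPKM with BQ788, against 1.40, 1.50 and 2.10 FPKM in controls (limma adjusted p = 0.0802). The barbed-end proteins EPS8 (0.03, adjusted p = 0.834) and TWF2 (0.02, adjusted p = 0.911) had log2 fold changes near 0. WHRN, the whirlin scaffold of the tip, was at 1.94, 2.01 and 2.16 FPKM with BQ788, against 1.31, 1.39 and 1.84 FPKM in controls, higher without overlap but not past the threshold (adjusted p = 0.198). ACTG1, the gamma-actin gene, was likewise at 166, 177 and 197 FPKM with BQ788, against 133, 146 and 158 FPKM in controls (log2 fold change 0.30, adjusted p = 0.125). Of all genes tested, 15.2% were higher without overlap. The tip link genes CDH23 and PCDH15 had means under 1 FPKM and were not tested.

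**Figure D4:**
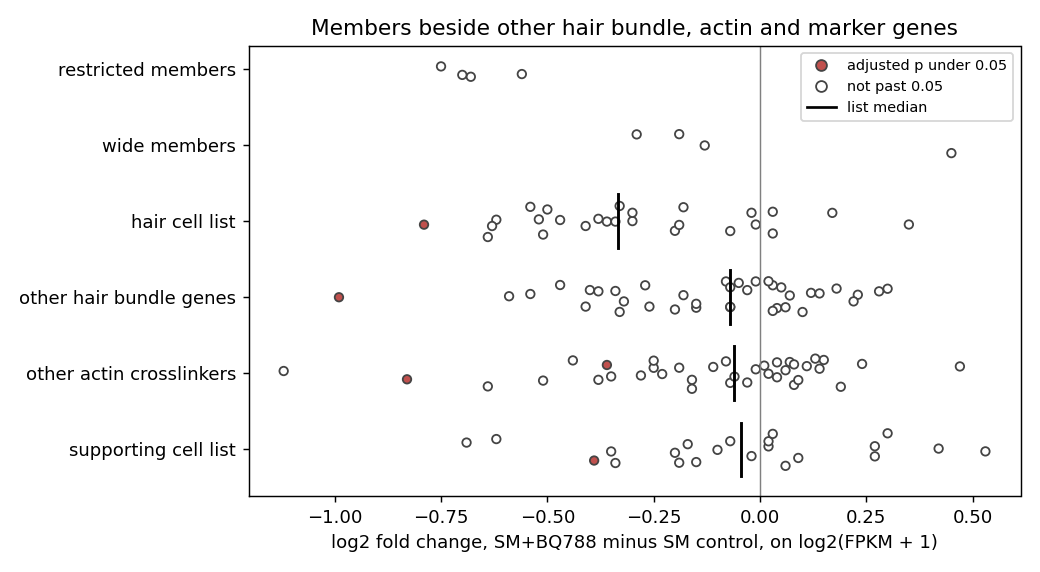
Log2 fold change (x axis, SM plus BQ788 minus SM control, on log2(FPKM + 1)) of every tested gene among the restricted and wide members and in 4 lists, with vertical jitter, filled where the limma adjusted p is under 0.05 and with the list median as a black bar. The medians are -0.33 for the hair cell list, -0.07 for other hair bundle genes, -0.06 for other actin crosslinkers and -0.05 for supporting cell genes. No member is filled.

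Actin crosslinkers and side binders outside the stereocilia gave 2 calls among 37 rows tested, both lower, against 2.24% of all genes tested that fell. At an unadjusted p under 0.05, 9 were lower and 1 higher, against 11.9% and 10.8% of all genes tested, and the median log2 fold change was -0.06. MARCKSL1, a membrane-bound actin binder, fell to 116 ± 10.2 FPKM with BQ788, against 205 ± 9.34 FPKM in controls (SD, n = 3 each, log2 fold change -0.83, limma adjusted p = 0.0189). LASP1, a focal adhesion protein gene, fell to 24.5 ± 1.32 FPKM, against 31.8 ± 1.33 FPKM (log2 fold change -0.36, limma adjusted p = 0.0430). FLNA, filamin A, followed (-0.64, adjusted p = 0.0656). Of MARCKSL1 and LASP1, MARCKSL1 alone remained without BQ788 replicate 3, and neither passed without BQ788 replicate 2 or any control. Without BQ788 replicate 1 there were 5 calls among the 37 rows, 4 lower and 1 higher, where 11.0% of all genes passed.

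Reads recovered from the table came to between 15438305 and 17375656 per library, so depth in reads was alike between libraries. The totals by which FPKM was scaled ran from 0.948 (BQ788 replicate 3) to 1.06 (BQ788 replicate 1) times these sums. In controls they were 1.02, 1.02 and 0.982 times the sums. The part of this scaling in the order of the libraries was not tested. Over all genes 355 passed, 2.24% lower and 0.751% higher, a count that was 1 when BQ788 replicate 2 or any control was left out, 21 without BQ788 replicate 3 and 1304 without BQ788 replicate 1. In the supporting cell list 22 of 24 genes were tested and FGFR3 fell, ahead of LFNG and TECTA by p (median -0.05). Markers of other cells were also present. Of the mesenchyme list 2 of 14 tested genes fell (POSTN and MGP, with COL3A1 next, median -0.05), of the Schwann cell and neuron list 3 of 8 (GAP43, NEFM and NEFL, median -0.19) and of the melanocyte list 1 of 5 (SLC45A2, with MLANA and OCA2 next, median -0.59). In limma, 0 of 4 endothelial and blood genes (PECAM1, CSF1R and LAPTM5 first by p), 0 of 5 muscle genes (ACTA2, MYH11 and TNNC1 first) and 0 of 2 brush border genes (EZR and USH1C) passed. At an unadjusted p under 0.05, 1, 2 and 0 of these were lower, against 11.9% of all genes tested.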

How the data were processed

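RNA-seq values of 6 libraries, 3 SM plus BQ788 and 3 SM controls, were grouped by sample title. Epithelia were lifted off with thermolysin and libraries made from 400 ng of total RNA with the NEBNext Ultra II kit, per the labels' protocols. The authors deposited FPKM per gene with gene coordinates and lengths. The tool fastp and the build GRCg7b are named in the submitters' processing notes. Neither aligner nor counter is given in the sources used here. The deposited FPKM times gene length gave whole multiples of 1 step per library for 100% of values, within 0.01 of a read, so reads were recovered. Floors of 3 reads and counting errors cover counting error only.

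Genes averaging 1 FPKM or more were tested with limma 3.58.1 (R 4.3.3) on log2(FPKM + 1), a linear model of group, eBayes with trend, two-sided, Benjamini-Hochberg over all 11857 genes at 0.05. The fit was also tested on simulated data. Single values and 4 paralog ratios had exact two-sided permutation tests. Named were all 10 members, the 3 genes of smallest p in each of 10 lists, and the 3 genes of highest Pearson r with each tested member. A gene that this rule chose is not reported here. Members, lists and tests were chosen with earlier results of these data known. Alternatives were no filter, a minimum mean of 5 FPKM, pseudocounts of 0.5 and 0.1, median-of-ratios, quantile and gene length (lowess, span 0.3) corrections, a replicate block, eBayes without trend or robust, limma voom on recovered reads, and each library left out. Chromosome names came from RefSeq's GRCg7b gene table, which matched 25616 of 25619 identifiers.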

Additional observations from a re-analysis of the deposited data

How the results depend on the processing

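Over 134 refits of the 8 tested members, each changing 1 choice except limma voom, which changes the input, offset and weights together, none changed sign, 122 stayed on the same side of the threshold and 12 passed it. The number of members past 0.05, 0 as reported, was 1 at a mean of at least 5 FPKM (ESPN), 1 under quantile normalization (FSCN2), 2 with limma voom (ESPN and FSCN2) and 0 to 3 when a library was left out, the 3 without BQ788 replicate 1 being ESPN, FSCN2 and PLS3. The other 7 alternatives with all libraries and no block gave 0. Over all genes 68 passed without the filter, where 20512 rows were tested, and 1 to 1304 with a library left out, against 355. Other bundle genes ranged from 0 to 5 calls and other actin crosslinkers from 0 to 5 with a library left out, the crosslinkers giving 1 without the filter and 1 with eBayes without trend. The cause of these shifts was not tested. The ESPNL to ESPN ratio difference ran from -0.25 to 0.03 with a library left out (0.03 without control replicate 3), against -0.13, and the other 3 ratios kept their sign, the GRXCR2 to GRXCR1 difference being 1.07 at a pseudocount of 0.1.

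Deviations from the group means of same-numbered libraries correlated at r = 0.50, 0.07 and 0.57 over genes, not all above 0.1, and replicate 2 did not correlate best with its own number, so the numbers were not taken as pairs. Between replicates 1 and 3 of different groups r was -0.48 and -0.53. Deviations within a group of 3 sum to 0, so these values cannot decide whether the numbers are pairs. With the replicate block 749 genes, 4 members (ESPN, ESPNL, FSCN2 and XIRP2), 3 other bundle genes and 6 other actin crosslinkers passed. Depth limited GRXCR1 and GRXCR2, with at most 41 and 4 reads.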

Other observations

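Relatives of the members were also measured. LCP1, the plastin of blood cells, was at 3.18, 2.04 and 1.54 FPKM with BQ788, against 3.04, 1.90 and 1.83 FPKM in SM controls, and VIL1, villin of the brush border, stayed below a mean of 1 FPKM. TPM4, a tropomyosin gene, was at 9.91, 9.86 and 9.80 FPKM with BQ788, against 15.0, 11.8 and 14.7 FPKM in controls (log2 fold change -0.44, limma adjusted p = 0.0665), and TAGLN3, a calponin family gene of neural cells, at 1.41, 0.969 and 2.17 FPKM, against 3.13, 4.28 and 6.05 FPKM (-1.12, limma adjusted p = 0.0658). Neither passed, and both were lower with BQ788 without overlap, as were 14.1% of all genes tested. EZR, the ezrin gene that links actin to membranes, spread widely within both groups, at 28.6, 67.4 and 104 FPKM with BQ788 and 47.6, 46.6 and 71.4 FPKM in controls. These genes were chosen after their values were seen.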
